A study of Schizosaccharomyces pombe with 3 samples.

Results

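Of 5169 intergenic features named on a fission yeast array, 1327 had signal in both channels on all 3 Ssn6-GFP arrays. A further 1184 were measured on 2 arrays, 2412 on 1 and 246 on 0. Among the 1327 regions, 203 lay in the top 15% of features on every array. These 203 took in 9 of 11 measured regions of iron and heme uptake genes and 15 of 18 of sugar genes. Of translation genes they took in 5 of 49. On the array these lists had 14, 38 and 146 regions, so the shares cover only the measured part. The gene lists were chosen with earlier results of these data known, so their shares are a description. Members were chosen by their measured log2 ratios. A region entered the set when its log2 ratio reached the 85th percentile of the 3960 intergenic, coding and other features of each array, so the ratios of the members are given as a description and no test is drawn from them. Among all features, 250 of 3960 (6.31%) met the same condition, and among intergenic features 15.3% did.

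The series holds 1 group of 3 arrays, numbered 1, 2 and 3 (slides 1, 10 and 2), with DNA from Schizosaccharomyces pombe cells that carry Ssn6 fused to green fluorescent protein. Per the labels, the cells were in mid log phase in rich YES medium, and DNA precipitated with an antibody against the fluorescent tag was hybridised in 2 colours beside input DNA after amplification. The precipitates came from separate experiments. An untagged strain or a mock precipitation was not analysed here, so no background of the antibody stands beside these ratios.

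The numerator of each ratio is likely the immunoprecipitate, and its direction was not settled by the labels. They place input in Cy3 and precipitate in Cy5 and state that dyes were not swapped, but the files name the channels only A and B. Channel B over channel A ran opposite on array 2, so the numerator here is channel B on arrays 1 and 3 and channel A on array 2. Read instead as B over A throughout, the means of the members lay between -0.03 and 1.20, with a median of 0.45 against -0.10 for all features, 200 of 203 stayed above 0, and on array 2 by itself 0 were positive. The rule asked for high A over B on array 2 and high B over A on arrays 1 and 3. It thus fixed the 0 on array 2 and in part the means, so these values cannot settle the direction. The deposited values, used with no sign turned on any array, gave 226 regions by the same rule, 115 of them among the 203. For these 115 the deposited values ran in the rule's direction on all 3 arrays. Every log2 ratio below is centred so that the median feature of an array is at 0.

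Ssn6 is a repeat protein that works with the Tup proteins, Tup11 and Tup12 in fission yeast, as a corepressor. The complex does not bind a DNA sequence of its own and is brought to promoters by DNA-binding repressors, such as the iron regulator Fep1 in fission yeast. Scr1 is a zinc finger protein of glucose repression there.

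An intergenic feature carries the name of a gene, and it was read here as the region before that gene's start. The files give neither probe sequences nor a genome build, so genes were placed by name on RefSeq's ASM294v3 and the stretches below are RefSeq's, not the spotted probes. Of the 203 members, 187 matched a gene and 16 did not, and 6 are long features whose side is not clear from the name. All stretches printed lie outside protein-coding gene records, in the gap before the named gene, and read 5′ to 3′ towards it. The pho84 stretch lies within the record of the noncoding RNA gene prt2. Capitals mark, on either strand, ATGATAA or AGATAA (forms of the GATA type that Fep1 binds). TGATAA without a leading A was not searched, and it stands unmarked in the fip1, shu1 and str2 stretches. Capitals also mark TGACGT (the core of the site of the stress factors Atf1 and Pcr1) on either strand. The same holds for CCCCAC (a zinc finger site of the Scr1 type) and CCCCTC (the site type of Rst2, an activator under glucose control). A palindromic TGACGT site counts on both strands.

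The gap between fip1 and fio1 is shown first because both genes of the iron permease and oxidase pair face it and both features are members. Stretches before the heme uptake gene shu1 and the siderophore transporter gene str2 follow, as iron uptake members with a GATA-type match near the gene start. None of the searched letters were found in the noncoding stretch before the iron uptake members sib2 and pcl1. The iron uptake members str1, str3 and abc3 had GATA-type matches only further out, with none in the 250 bases before the gene start. The printed stretches were thus picked for their matches and do not stand for the whole list. The printed stretches lie at chrI:4234769-4235068, chrI:86343-86462 and chrIII:1442016-1442135, all on the minus strand.
fip1: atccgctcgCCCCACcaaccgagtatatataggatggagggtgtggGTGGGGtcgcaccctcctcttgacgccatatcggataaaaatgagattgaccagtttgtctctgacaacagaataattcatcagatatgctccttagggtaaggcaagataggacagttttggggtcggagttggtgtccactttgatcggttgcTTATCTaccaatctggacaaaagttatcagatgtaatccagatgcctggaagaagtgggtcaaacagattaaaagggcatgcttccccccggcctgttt
shu1: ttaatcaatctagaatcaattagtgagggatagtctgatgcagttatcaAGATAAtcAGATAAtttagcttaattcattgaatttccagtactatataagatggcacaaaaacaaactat
str2: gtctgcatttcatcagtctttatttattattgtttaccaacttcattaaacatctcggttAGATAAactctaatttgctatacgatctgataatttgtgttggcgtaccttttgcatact

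The sugar-use members gal10, gal7 and gto1 and the region of wwm3, which faces fbp1, are shown for their CCCCAC matches. No CCCCAC was found in the noncoding stretch before the sugar members ght5, ght6, adh1, pdc101, tpi1, pfk1, fba1, gpd3 and mae2. The gal7, gto1 and wwm3 stretches begin at most 196 bases before the gene start, and the gal10 stretch lies further out, from 353 to 154 bases before it. In the order gal10, gal7, gto1 and wwm3, the stretches are chrII:4487689-4487888, chrII:4483716-4483835 and chrI:5475022-5475141 on the minus strand and chrII:202152-202271 on the plus strand. The stress gene gpd1 is shown for its TGACGT matches, at chrII:4035416-4035565 on the plus strand. No TGACGT was found in the noncoding stretch before the stress members hsp9, srx1, tpx1 and cta3.
gal10: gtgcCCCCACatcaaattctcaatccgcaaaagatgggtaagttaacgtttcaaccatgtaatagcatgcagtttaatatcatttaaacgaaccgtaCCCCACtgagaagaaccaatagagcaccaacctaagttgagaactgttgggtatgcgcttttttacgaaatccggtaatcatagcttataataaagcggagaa
gal7: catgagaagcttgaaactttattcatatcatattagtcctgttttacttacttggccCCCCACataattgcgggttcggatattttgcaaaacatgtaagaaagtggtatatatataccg
gto1: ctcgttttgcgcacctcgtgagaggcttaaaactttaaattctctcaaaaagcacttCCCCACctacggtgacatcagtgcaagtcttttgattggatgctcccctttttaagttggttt
wwm3: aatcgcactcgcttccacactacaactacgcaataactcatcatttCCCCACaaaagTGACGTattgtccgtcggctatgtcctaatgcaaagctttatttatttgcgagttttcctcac
gpd1: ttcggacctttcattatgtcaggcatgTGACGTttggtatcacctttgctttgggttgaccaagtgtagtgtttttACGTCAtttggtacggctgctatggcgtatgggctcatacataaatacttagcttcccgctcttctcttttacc

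The last stretches are the 200 bases before regions among the highest means. They are phf1 at chrIII:459668-459867 on the plus strand, str3 at chrI:90290-90489 and tna1 at chrI:1829719-1829918 on the minus strand, and pho84 at chrII:4443901-4444100 on the plus strand. The letters searched were not found in the phf1, str3 and tna1 windows.
phf1: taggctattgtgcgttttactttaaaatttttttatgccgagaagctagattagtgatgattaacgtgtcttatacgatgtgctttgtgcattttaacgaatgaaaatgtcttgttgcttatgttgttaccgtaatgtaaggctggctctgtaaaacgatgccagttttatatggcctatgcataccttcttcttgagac
str3: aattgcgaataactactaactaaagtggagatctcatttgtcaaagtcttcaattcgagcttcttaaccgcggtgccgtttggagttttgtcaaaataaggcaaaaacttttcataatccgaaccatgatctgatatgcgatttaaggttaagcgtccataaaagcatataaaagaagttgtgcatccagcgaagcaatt
tna1: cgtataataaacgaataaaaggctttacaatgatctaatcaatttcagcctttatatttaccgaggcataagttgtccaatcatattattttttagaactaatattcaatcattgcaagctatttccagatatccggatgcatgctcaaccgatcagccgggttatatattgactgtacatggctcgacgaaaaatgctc
pho84: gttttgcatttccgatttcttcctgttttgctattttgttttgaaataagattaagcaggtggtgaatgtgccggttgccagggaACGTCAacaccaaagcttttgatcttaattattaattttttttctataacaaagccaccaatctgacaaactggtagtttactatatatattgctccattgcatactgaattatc

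The mean log2 ratio of the members ranged from 0.96 to 3.28 with a median of 1.67, and 67 of 203 were at 2 or above. On arrays 1, 2 and 3 the medians were 1.47, 1.79 and 1.73 for members, against 0.24, 0.17 and 0.30 for the 1124 other intergenic features and -0.44, -0.08 and -0.28 for the 2633 coding and other features. Array 2 gave the highest value of a region for 120 members and array 1 the lowest for 117. The SD between arrays had a median of 0.37 in members and 0.44 in other intergenic features. All 203 members passed limma against 0 (adjusted p under 0.05), as did 8.26% of all features and 19.7% of intergenic features in the higher direction, and 0 members and 5.61% of all features were called lower. That fit uses the values of the rule, so nothing is read from the count.

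The intensities behind these ratios chose the members, so they too are a description. The median numerator intensity per pixel of members was 3086, 9788 and 5428 on arrays 1, 2 and 3, against 1771, 3686 and 2863 for other intergenic features. The denominator medians were 632, 2880 and 1011 for members and 896, 3701 and 1606 for other intergenic features, with members higher in the numerator and lower in the denominator on all 3 arrays. The numerator exceeded the 95th percentile of negative-control spots on every array for 124 of 203 members and 129 of 1124 others. On array 3 it did so for 130 members and 17.3% of others, and on array 1 for 187 members and 37.1% of others. On array 2 all 203 members and 100% of others passed, so that count tells nothing of the members. The limit was 222.7 on array 2, against 1958.65 on array 1 and 4451.7 on array 3. Dim numerators limit the low members of array 3 most.

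**Figure D1:**
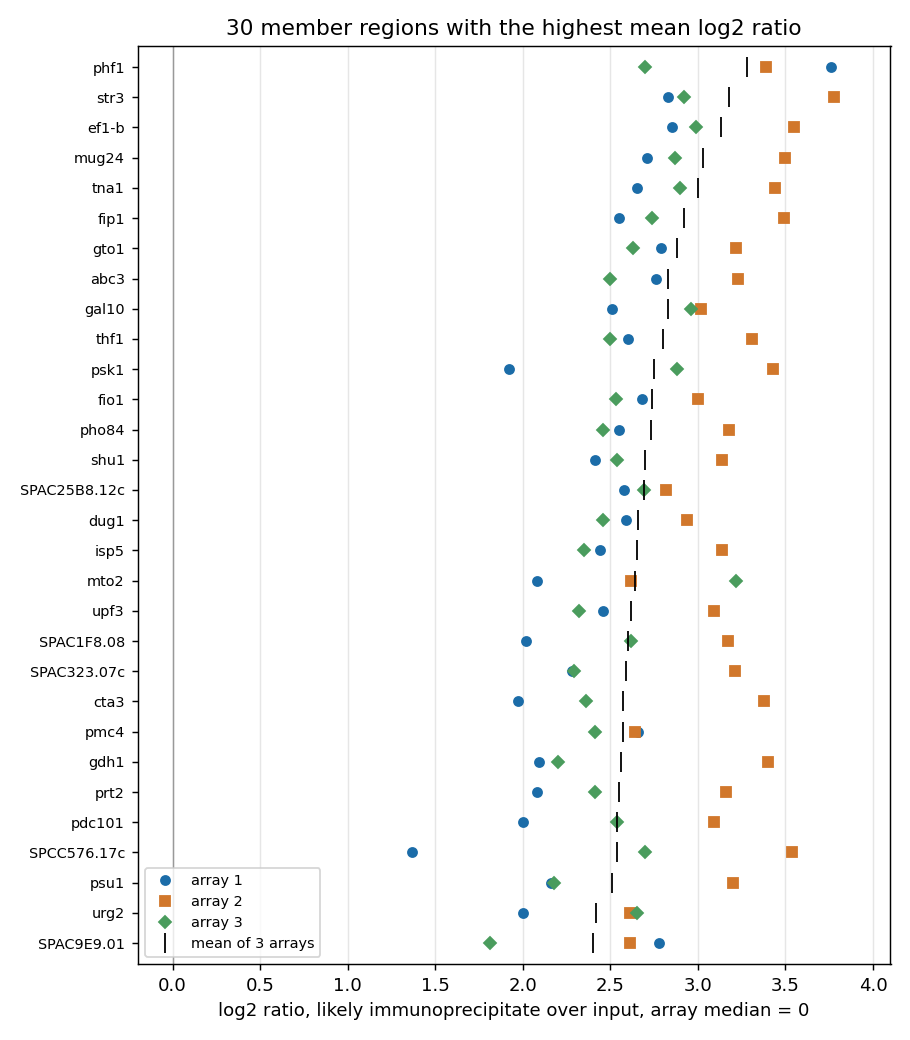
Log2 ratio (x axis, array median at 0) of the 30 member regions with the highest means, long features left out (y axis), with a marker for each of the 3 arrays and a bar for their mean. Array 2 holds the highest value of most of these regions, and psk1 and SPCC576.17c lie low on array 1 alone, at 1.92 and 1.37.

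With the numerators above, the highest mean belonged to the region of phf1, a PHD finger gene that faces psk1, the gene of an S6-type kinase. Read as B over A throughout, phf1 averaged 1.02 and ranked 3 among the members, str3 averaged 0.66 and ranked 33, and cat1 was highest at 1.20. The phf1 feature had log2 ratios of 3.76, 3.39 and 2.70 on arrays 1, 2 and 3, and the psk1 feature of the same 706-base gap had 1.92, 3.43 and 2.88. The next matched regions were those of str3, at 2.83, 3.78 and 2.92, and of mug24, an RNA-binding protein gene, at 2.71, 3.50 and 2.87. A feature named ef1-b had 2.85, 3.55 and 2.99 and matched no gene of the annotation. The thf1 region, between a folate enzyme gene and the elongation factor gene tef103, had 2.60, 3.31 and 2.50. In all of these the lowest percentile over the arrays was 97.9 or higher, and 9 members stayed at the 99th percentile or above on every array.

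Iron and heme uptake gave members at 9 of 11 measured regions, with a median mean log2 ratio of 1.77 over the list, where 15.3% of all intergenic features were members. For the permease and ferroxidase that take up reduced iron, the fip1 feature had 2.55, 3.49 and 2.74 on arrays 1, 2 and 3 and the fio1 feature 2.68, 3.00 and 2.53. These features share the gap printed above, and a long feature also named for fio1 averaged 1.52 ± 0.57 (SD, n = 3). Among the siderophore transporters, str3 was highest, str1 had 1.47, 1.75 and 1.14, and str2 varied most, at 0.85, 2.65 and 1.76. The heme uptake gene shu1, next to str3, had 2.41, 3.14 and 2.54, and abc3, an ABC transporter gene, had 2.76, 3.23 and 2.50. The regions of sib2, which makes the first intermediate of siderophores, and pcl1, an iron transporter gene, averaged 1.77 ± 0.48 and 1.50 ± 0.56 (SD, n = 3 each). Both measured regions that were not members belonged to regulators, the GATA repressor gene fep1 at 0.53 ± 0.20 and the iron-starvation regulator gene php4 at 0.65 ± 0.59 (SD, n = 3 each). The ferric reductase region frp1 was measured on 2 arrays only, at 3.34 and 2.38 on arrays 1 and 2.

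Sugar transport and use gave 15 of 18 measured regions, with a list median of 2.06. The galactose cluster near the end of chromosome II held gal10 at 2.51, 3.02 and 2.96, gal7 at 1.72, 2.69 and 1.99, and the dehydratase gene tgd1 that faces gal7 at 1.60, 2.80 and 2.28. The alpha-glucosidase genes gto1 and agl1 averaged 2.88 ± 0.30 and 1.79 ± 0.43 (SD, n = 3 each). Of the hexose transporter family, ght3, ght6 and ght5 averaged 2.31 ± 0.39, 1.55 ± 0.30 and 1.38 ± 0.39 (SD, n = 3 each). Glycolytic and fermentative genes were members as well, namely pfk1, fba1, tpi1, gpd3, gpm1, pdc101 and adh1, with means between 1.84 and 2.54. Of these, adh1 and gpd3 had among the widest spreads of all members, at 0.83, 3.13 and 2.24 for adh1 and 0.83, 2.98 and 2.06 for gpd3, and read as B over A throughout they averaged -0.02 and -0.03. The remaining member of the list, the malic enzyme gene mae2, averaged 2.23 ± 0.45. The regions not in the set were pyk1, at 0.51, 2.39 and 1.70 and so low on array 1 alone, inv1 at 0.92 ± 0.48 and gut2 at -0.13 ± 0.31 (SD, n = 3 each). Further members face sugar genes that do not number among the 18. The wwm3 region faces fbp1, the glucose-repressed fructose bisphosphatase gene, and had 1.67, 2.43 and 2.08. The regions of mug114, which faces hxk2, and rpn502, which faces mae1, averaged 1.51 ± 0.47 and 1.28 ± 0.10 (SD, n = 3 each).

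**Figure D2:**
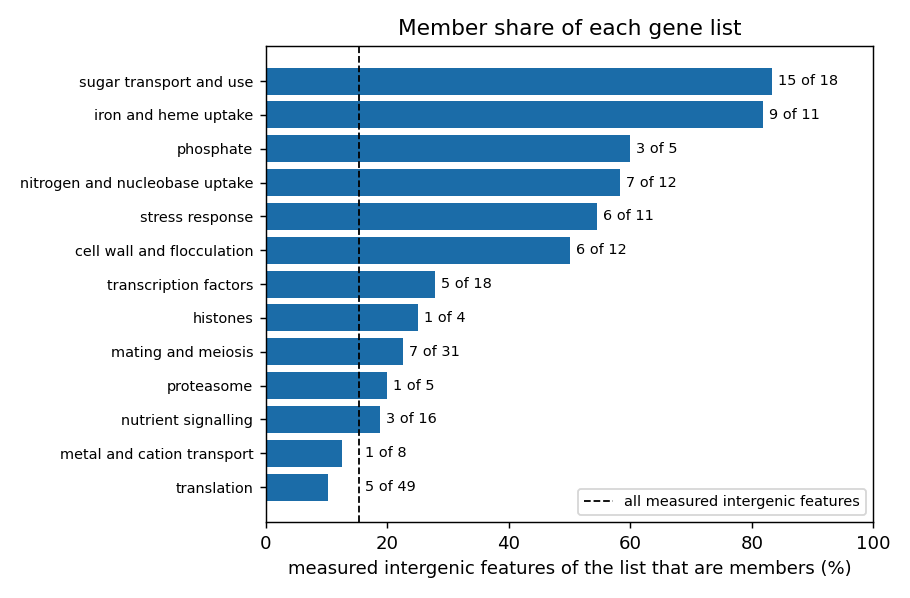
Percent of the measured intergenic features of each gene list that are members (x axis), by list (y axis), with counts beside the bars and a dashed line at the 15.3% of all measured intergenic features. Sugar and iron genes lie above 80% and translation genes at 10.2%. The lists were chosen with earlier results of these data known.

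Among the 5 measured phosphate genes, 3 were members. The transporter gene pho84 had 2.55, 3.18 and 2.46, the noncoding RNA gene prt2 beside it 2.08, 3.16 and 2.41, and the acid phosphatase gene pho1 1.98, 1.87 and 1.61. The related genes tgp1 and pho4 averaged 0.21 ± 0.47 and 0.58 ± 0.39 (SD, n = 3 each) and were not members. The list of nitrogen and nucleobase uptake had 7 of 12, although bpb1, 1 of the 7, is annotated as a splicing factor gene. Its highest members were tna1, a nicotinic acid transporter gene, at 2.65, 3.44 and 2.90, and the amino acid permease gene isp5 at 2.44, 3.14 and 2.35. The arginine and lysine transporter gene cat1 was high on array 3, at 1.76, 1.48 and 3.30, and the uracil-regulated genes urg2 and urg3 share a divergent gap and averaged 2.42 ± 0.37 and 1.70 ± 0.24 (SD, n = 3 each). The peptide transporter gene isp4 lay just outside, with a lowest percentile of 84.77.

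Stress genes gave 6 of 11 measured regions. The ion pump gene cta3 had 1.97, 3.38 and 2.36 and was also the only member among 8 metal and cation genes. The glycerol synthesis gene gpd1 had 1.40, 2.64 and 2.43. The chaperone genes ssa1 and hsp9 averaged 2.20 ± 0.59 and 1.47 ± 0.37, and the peroxide defence genes tpx1 and srx1 1.96 ± 0.66 and 1.74 ± 0.73 (SD, n = 3 each). Members of the cell surface list were 6 of 12, led by psu1, at 2.16, 3.20 and 2.18, and cfh2, a chitin synthase regulator gene, at 1.87, 2.57 and 2.42. The flocculin-like genes pfl5 and pfl3, the glucan enzyme gene gas2 and ecm33 averaged between 1.36 and 1.69.

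Transcription factor genes gave 5 of 18, which were rsv2 at 2.24 ± 0.35, prr1 at 2.02 ± 0.38, cbf12 at 1.96 ± 0.43, toe1 at 1.53 ± 0.48 and sak1 at 1.43 ± 0.29 (SD, n = 3 each). Signalling genes gave 3 of 16, namely psk1, the kinase gene ppk9 at 1.80 ± 0.74 and the stress MAP kinase gene sty1 at 1.64 ± 0.21 (SD, n = 3 each). Mating and meiosis genes gave 7 of 31, of which mug24 and mug153, at 1.84, 3.13 and 2.23, were highest. Translation genes gave 5 of 49 (10.2%), beside 15.3% of all intergenic features, and this difference was not tested. These were ef1-b, rpl2501 at 1.82 ± 0.50, rpl1001 at 1.36 ± 0.22, rpl302 at 1.13 ± 0.18 and rps402 at 1.08 ± 0.24 (SD, n = 3 each), and the list median was 0.26. Histone genes gave 1 of 4 (hhf3) and proteasome genes 1 of 5 (rpn502). Ranked among intergenic features alone, 94 of the 203 members stayed. Sugar genes kept 10 of 15, nitrogen and nucleobase uptake 6 of 7, iron and heme uptake 5 of 9, stress 4 of 6 and phosphate 3 of 3. The cell surface and transcription factor lists kept 3 each, and mating and meiosis and signalling 2 each. Translation and metal and cation genes kept 1 each, and histone and proteasome genes 0.

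At the 85th percentile the log2 ratio was 0.79, 0.84 and 0.87 on arrays 1, 2 and 3. Just inside lay SPAC27F1.10, the adenosine kinase gene ado1, wtf1-pseudo, msi2 and SPAC3H1.06c, with lowest percentiles of 85.03 to 85.58 and means of 1.02 to 1.25. Just outside lay SPCC757.06, isp4, tfb5, yam8 and SPAC6B12.14c, with lowest percentiles of 84.65 to 84.85. The means of tfb5 and isp4, 1.84 and 1.24, were no lower than those of many members, and the values of the 2 sides do not separate. A further 186 intergenic features measured on only 2 arrays reached the same log2 values on both, led by pgk1, the phosphoglycerate kinase gene, at 3.61 and 2.59 on arrays 2 and 3.

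The arrays differed most at adh1, ani2, SPCC576.17c, gpd3 and SPAC22E12.02, with SDs of 1.04 to 1.16. For ani2 the values were 0.82, 2.10 and 2.99 and for SPAC22E12.02 1.35, 1.16 and 3.05. The most even regions were SPAC977.05c, telomericsimilartoc212, gwt1, pex7 and gas2, with SDs of 0.01 to 0.08 and means of 0.96 to 1.42.

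Gaps between coding sequences were longer at the median in members. The median gap of the 182 members with an upstream protein-coding neighbour was 1421 bases, against 957 bases for 967 other intergenic features. With gaps split by length into 4 bins of about equal size, members were 5.86%, 14.0%, 21.5% and 22.0% of the intergenic features from the shortest bin to the longest. Divergent gaps, shared by the starts of 2 genes, were 64.3% of member gaps (exact 95% binomial interval 56.9 to 71.2) and 56.8% of others (53.6 to 59.9). Counting each gap once, the shares were 59.9% and 51.5%. Within tandem gaps the median lengths were 1586 bases for members and 862 for others, and within divergent gaps 1297 and 1090.

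Long terminal repeats, the remnants of Tf retrotransposons, lay in 32 of 182 member gaps (17.6%, interval 12.3 to 23.9) and 57 of 967 other gaps (5.89%, interval 4.49 to 7.57). In the 3 longer bins, from 532 bases up, the shares were 22.5%, 16.1% and 20.6% in members, against 5.65%, 5.38% and 13.9% in others. The member gaps with such a repeat had a lower median mean log2 ratio, 1.46 against 1.76 for 150 without. Of these 32 members, 15 had a numerator above the negative-control limit on every array, against 98 of the 150. With only features whose numerator exceeded that limit on every array, and members ranked anew among them, 0% of 26 member gaps held a repeat against 19.8% of other gaps, and the median gap was 1211 bases in members and 1426 in others. The highest members with a repeat were the cytochrome b5 reductase gene SPCC330.03c, at 2.20, 2.43 and 2.36, ght3, and the phosphatase gene ptc2 at 1.45, 3.02 and 2.23. Repeats, Tf2-1, the wtf genes and some features near chromosome ends can have similar copies elsewhere. Copies of the members were not counted here, and the part of shared hybridisation in these values was not tested. Within 100 kb of an assembled chromosome end lay 8.74% of members (interval 5.08 to 13.8) and 4.31% of others (interval 3.13 to 5.78), among them str3, shu1, ght3, the galactose cluster and pho84. Transfer RNA genes lay in 2.75% of member gaps and 3.21% of others, and small nuclear or nucleolar RNA genes lay in 0 of 182 member gaps and 12 of 967 others.

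**Figure D3:**
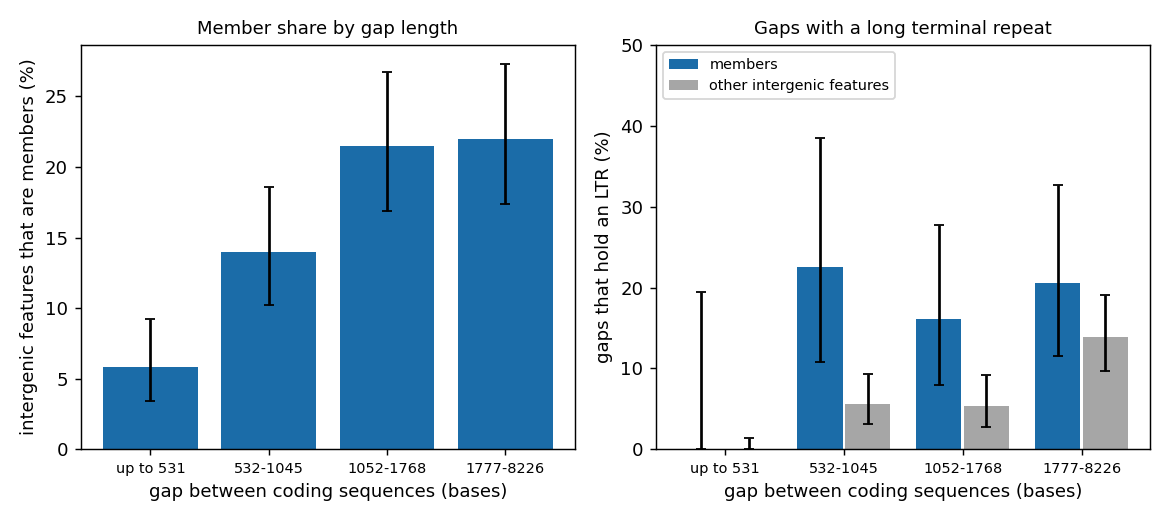
Left, percent of intergenic features that are members, by length bin of the gap between coding sequences in bases (x axis). Right, percent of gaps that hold a long terminal repeat in members and in other intergenic features, with exact 95% binomial intervals in both panels. The member share is 5.86% in the shortest bin and 22.0% in the longest, and the repeat share is higher in members in the last 3 bins, with overlapping intervals in the longest 2.

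Products that name a transporter or permease belonged to 26 of 183 member genes (14.2%, interval 9.5 to 20.1) and 48 of 974 others (4.93%, interval 3.66 to 6.48). Beside the uptake genes above they included SPCC576.17c, a vitamin B6 transporter gene, at 1.37, 3.54 and 2.70, the MatE family gene SPAC323.07c at 2.28, 3.21 and 2.29, and the phosphate transporter genes pho841 and pho842 at 1.97 and 1.62 on average. Glycoproteins and enzymes of glucan or chitin made up 6.56% of member genes and 1.13% of others. Ribosomal proteins made up 2.19% of members (interval 0.599 to 5.5) and 4.93% of others, which lies inside that interval. Kinases or phosphatases made up 8.20% and 7.39%.

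Upstream windows of 250 bases before to 50 bases after the annotated gene start were slightly richer in G and C in members, with medians of 35.7% and 34.3% in others. ATGATAA was present in 13.7% of 183 member windows (interval 9.04 to 19.5), 8.01% of 974 others and 8.90% of all. TGACGT was present in 12.0% of member windows (interval 7.69 to 17.6), 6.57% of others and 7.43% of all. CCCCAC was present in 6.01%, 3.80% and 4.15%, CCCCTC in 4.37%, 2.67% and 2.94%, and AGATAA in 27.3%, 23.1% and 23.8% of the same groups. Over whole gaps, each counted once, CCCCAC had 61 matches in 286 kb of member gaps (0.213 per kb) and 121 in 1082 kb of others (0.112 per kb). ATGATAA had 0.440 and 0.323 matches per kb and TGACGT 0.234 and 0.176. The ribosomal gene element CAGTCACA was in 2.19% of member windows and 4.31% of others. In windows, the share in others lay inside the member interval for CCCCAC (3.04 to 10.5) and CCCCTC (1.91 to 8.43). It also did so for AGATAA (21 to 34.4) and CAGTCACA (0.599 to 5.5). For the heat shock element GAANNTTC, the TR box TTCTTTGTT, the CSL site GTGGGAA, the HomolE core AGGGTA, the CCAAT box, the TATA box TATAAA, the MCB site ACGCGT, the forkhead site GTAAACA and a run of 10 A, the share in others lay inside the interval of the members. No sequence read here is that of a probe, and a match is a description of the RefSeq window.

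The coding features of the members' own genes did not choose the members. For 103 members the coding feature of the gene was measured on all 3 arrays, and the intergenic means of these were high by the rule. Of these 103 coding features, 17 (16.5%) were higher by limma at an adjusted p under 0.05, where 9 of 522 (1.72%) coding features of other intergenic features and 2.25% of all 2491 protein-coding features were. The difference in median was larger on array 2 than on arrays 1 and 3. There the medians were 0.69 for coding features of member genes and -0.04 for those of other intergenic features, against -0.29 and -0.39 on array 1 and -0.16 and -0.28 on array 3. The median over coding features of member genes was 0.07 with all arrays and -0.12 without array 2. For coding features of other intergenic features it was -0.27 and -0.32. Read as B over A throughout, the medians were -0.29 and -0.22. Coding features rich in signal included tna1 at 1.67, 2.88 and 2.51, fip1 at 1.77, 2.98 and 2.39, SPAC1F8.08 at 2.11, 2.95 and 2.33, and shu1 at 1.51, 1.79 and 2.00. The coding feature of mug114 averaged 2.70 ± 0.88 and its intergenic feature 1.51 ± 0.47 (SD, n = 3 each). A coding feature and its intergenic neighbour can share sonicated fragments, and the part of this in the result was not tested.

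**Figure D4:**
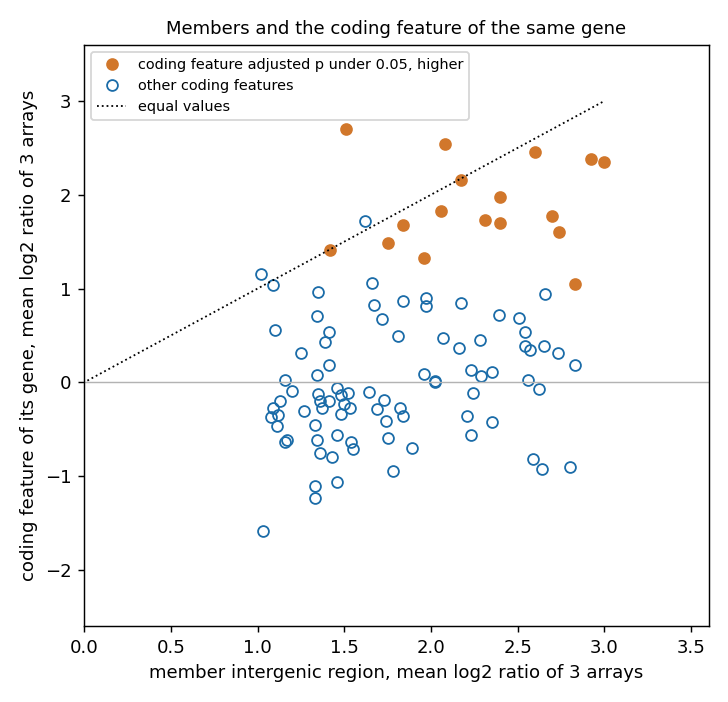
Mean log2 ratio over 3 arrays of 103 member regions (x axis) and of the coding feature of the same gene (y axis). Filled points are the 17 coding features that were higher by limma. The dotted line marks equal values, and the x values were high by the rule.

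Where both genes of a divergent gap had a measured feature, their values can be set side by side. Among 126 such pairs, both features were members in 20, 1 was in 17 and neither was in 89. Across the 126 pairs the means of the 2 features had a Pearson correlation of 0.69, and across 88 convergent pairs, whose features lie on opposite sides of the genes, 0.28. Both are descriptions, since neighbours share fragments and arrays. Beside phf1 with psk1 and fip1 with fio1, pairs of members included SPAC323.07c with rmp1 (2.59 and 2.39), pdc101 with SPAC1F8.08 (2.54 and 2.60), ssa1 with upf3 (2.20 and 2.62), gal7 with tgd1 (2.13 and 2.23) and icl1 with SPBC1683.12 (2.19 and 1.39). The 3418-base gap of abc3 and pfl7 differed between its sides, with 2.83 ± 0.37 for abc3 and 0.52 ± 0.55 for the flocculin-like gene pfl7 (SD, n = 3 each). The 1262-base gap of tpx1 and bxi1 did too, with 1.96 ± 0.66 and -0.28 ± 0.96 (SD, n = 3 each).

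**Figure D5:**
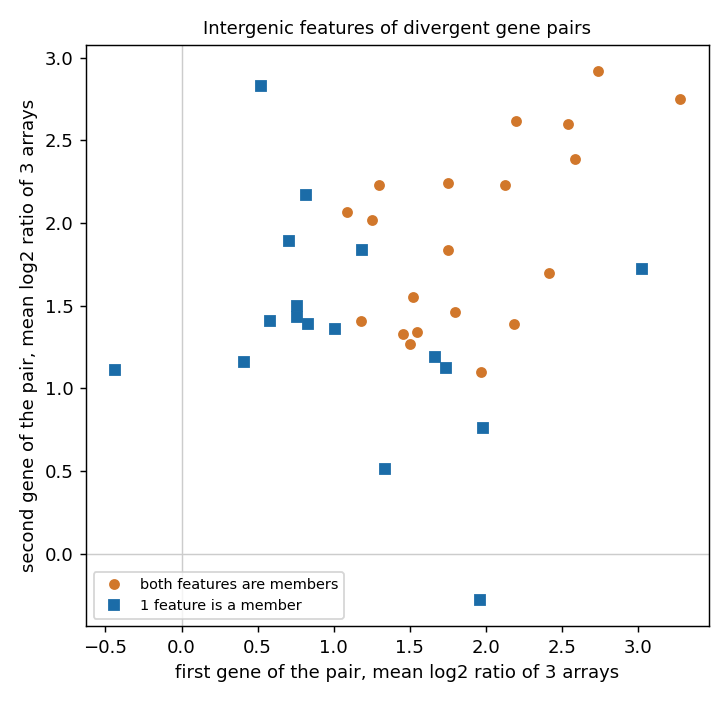
Mean log2 ratio over 3 arrays of the features of both genes of a divergent gap, for the 37 pairs that hold at least 1 member. Circles are the 20 pairs with both features in the set and squares the 17 with 1, among which abc3 lies at 2.83 and its partner pfl7 at 0.52.

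Members also lay side by side along the chromosomes. In 11 places, 3 or more members came from genes that follow each other or skip 1 gene at a time. These runs held 35 members in all, while 107 stood alone. Some runs hold both features of 1 divergent gap, such as gal7 with tgd1, urg2 with urg3 and icl1 with SPBC1683.12. Such a gap counts for both of its genes, and runs were not counted over all measured intergenic features. The counts are thus a description. On chromosome II, 52.3 kb from the end, SPBPB2B2.08, gal7, tgd1 and gal10 formed such a run. On chromosome I, tna1, urg2, urg3 and toe1 formed another, and ght3, shu1 and str3 lay together 82.9 kb from the end. Further runs held pho84, pho1 and nrg1, and pcl1, icl1 and SPBC1683.12 (all on chromosome II), and abc3, pho841 and amf1 lay together on the same chromosome.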

How the data were processed

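Per the labels, immunoprecipitated and input DNA were amplified in 2 rounds, labelled with Cy3 and Cy5, hybridised to an array of coding and intergenic features, scanned and quantified with TIGR Spotfinder, version not given in the sources used here. The deposited scanner files hold the spot intensity of channels A and B, and the deposited series table holds log10 values that, per the labels, the authors median-normalised. Log2 ratios were taken from integrated intensities without background subtraction, over spots positive in both channels, centred on the median of each array and averaged per name. Control and construct spots were left out.

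The fit across 3960 features used limma 3.58.1 in R 4.3.3 with Benjamini-Hochberg adjustment. On data simulated for it, limma recovered 22%, 98% and 100% of features shifted by 1, 2 and 3 on the log2 scale. Intervals are exact binomial (SciPy 1.17.1), cover counting error only, and treat regions as independent. The number of arrays, 3, limits the precision. Gene names, gaps and sequences come from RefSeq's ASM294v3. Gaps run between coding sequences of neighbouring protein-coding genes.

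The members and gene lists were chosen with earlier results of these data known. Named regions are the 15 with the highest means and the 15 with the highest lowest percentiles, members of the gene lists, divergent pairs, the 5 nearest each side of the threshold, and the 5 with the largest and the 5 with the smallest SD. Others named from the counts of repeats, transporters, coding features, unequal gaps and runs were chosen after their values were seen. The corepressor list had 0 regions measured on all arrays. Alternatives tried were other numerators, backgrounds, normalisations, percentiles, spot filters, the deposited table and leaving out each array.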

Additional observations from a re-analysis of the deposited data

How the results depend on the processing

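The number of member regions was 203. Reading B over A throughout gave 4 and turning the sign of every ratio gave 7, with 0 of the 203 in either. The rule fixed that 0, because it set the direction of every array. Subtracting the local background gave 104 (99 shared), ranking among intergenic features alone 94 (all 94 shared) and keeping only features with the numerator above the negative-control limit on every array 29 of 464 features ranked. Leaving out each array in turn gave 275 to 308, with 308 without array 3, of which 165 to 203 were shared. The normexp and loess settings shared 184 and 165 of the 203, and the deposited values 115. Of all features, 327 were called higher and 222 lower by limma, and of members 203 higher. B over A called 0 higher, 0 lower and 0 members (limma, 138 at an unadjusted p under 0.05). Background subtraction called 85 higher, 8 lower and 69 of the 170 members left, the negative-control filter 12 lower and all 124 members left, and leaving out the dimmest 10% of denominator spots 107 of the 108 members left. Leaving out each array in turn called 209 to 331 higher, 9 to 548 lower and 104 to 191 members, with 58 lower without array 1, 548 without array 2, and 209 higher, 9 lower and 104 members without array 3. The share of gaps with a long terminal repeat was 11.5% in members ranked among intergenic features alone, against 7.44% in others. Under the negative-control filter it was 0% in 26 member gaps against 19.8% in others, which there include original members. Divergent gaps were 76.9% and transporters 25.9% under that filter. Member shares of repeats, divergent gaps and transporters lay above those of others under every alternative with 20 or more members, with that exception for repeats; these alternatives were chosen after seeing the data. The means of 3 named members turned sign with B over A, str2 (-0.01), adh1 (-0.02) and gpd3 (-0.03). Ranked among intergenic features alone, where 94 of the 203 members stayed, iron and heme uptake kept 5 of 9 and sugar genes 10 of 15. The cause was not tested. No paired analysis was possible because the series holds 1 group. Dim spots limit array 3 most.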

Other observations

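Some member regions of metabolic genes lay outside the gene lists and were picked after their values were seen, so they say nothing of the share of any pathway that was high. The region of zwf1, a glucose-6-phosphate dehydrogenase gene, was at 1.45, 3.41 and 2.21 on arrays 1, 2 and 3, that of gnd1, a phosphogluconate dehydrogenase gene, at 1.10, 2.26 and 1.44, and that of the transketolase gene tkt1 at 0.95, 1.61 and 0.96. All 3 were highest on array 2. The glutamate dehydrogenase genes gdh1 and gdh2 had 2.09, 3.40 and 2.20 for gdh1 and 1.14, 1.44 and 1.64 for gdh2. The sulfate assimilation gene sua1 had 1.80, 2.50 and 2.41. The erg5 region had 2.00, 1.53 and 1.66 and the erg10 region 1.58, 1.74 and 1.33.

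A feature named telomericsimilartoc212 matched no gene and had the lowest mean of all members, 0.96 ± 0.02 (SD, n = 3), with values of 0.99, 0.95 and 0.96.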
